A study of Mus musculus with 8 samples.

Results

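The genes described here encode the proteins of the cytosolic ribosome, in 8 RNA-seq libraries from whole lungs of C57BL/6 mice. They were taken by symbol, as every gene named Rpl or Rps with a number and at most 1 or 2 trailing characters, together with Rplp0, Rplp1, Rplp2 and Rpsa, which gave 84 of the 23284 genes in the table. Of these, 51 belong to the large subunit and 33 to the small subunit. All recipients were wild type (WT), received a bone marrow transplant and then spent 3 days in hypoxia. In 4 libraries the donor marrow was triply n/i/eNOS-/-, lacking the neuronal, inducible and endothelial nitric oxide synthases Nos1, Nos2 and Nos3 (NOS-null marrow). In the other 4 the donor marrow was WT (WT marrow), so both groups carry the transplant and the hypoxia, and the labels give the marrow as their difference. The labels do not give the age or sex of the mice, how they were prepared for the transplant, or the share of donor-derived lung cells, and no lungs from normal air were used here.

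A ribosome reads an mRNA on its small subunit and joins amino acids on its large subunit. Its proteins are made from separate genes in nearly matched amounts, each taken into the nucleolus and built onto ribosomal RNA with the help of assembly factors. Most of their mRNAs are TOP mRNAs, which begin at a C followed by an unbroken run of pyrimidines (C or T in the DNA). Through that run the kinase mTORC1, acting with Larp1, adjusts their translation, often with little change in their mRNA levels. An mRNA level therefore does not measure how much ribosomal protein a cell makes.

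The first bases of some members show pyrimidine runs near the annotated start, whether or not a run begins with a C at the start itself. The stretches below run from 10 bases before to 20 bases from the RefSeq transcription start of GRCm38.p6, 5′ to 3′ on the gene's strand, and capitals mark the longest unbroken pyrimidine run within 20 bases of the start, as far as it lies in the stretch. The first 7 belong to genes whose values did not overlap between the marrow groups, and Rps9 and Rps27 are the members with the highest log2 changes. Rps6, which encodes the classical substrate of the S6 kinases, stands for the many members with a small difference.
Rps2, chr17:24720053-24720082, plus strand: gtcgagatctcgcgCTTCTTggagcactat
Rpl12, chr2:32961702-32961731, plus strand: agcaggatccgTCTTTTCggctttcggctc
Rpl15, chr14:18270967-18270996, minus strand: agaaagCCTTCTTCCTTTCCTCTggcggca
Rpl22l1, chr3:28805498-28805527, plus strand: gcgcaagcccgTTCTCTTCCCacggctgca
Rpl27a, chr7:109519185-109519214, plus strand: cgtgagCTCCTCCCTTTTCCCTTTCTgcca
Rpl7a, chr2:26910797-26910826, plus strand: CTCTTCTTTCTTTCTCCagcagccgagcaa
Rpl7l1, chr17:46782637-46782666, minus strand: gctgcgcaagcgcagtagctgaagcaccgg
Rps9, chr7:3704031-3704060, plus strand: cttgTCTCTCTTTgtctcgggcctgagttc
Rps27, chr3:90213629-90213658, minus strand: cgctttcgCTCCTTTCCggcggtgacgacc
Rps6, chr4:86857348-86857377, minus strand: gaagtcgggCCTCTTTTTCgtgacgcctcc

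Of the 84 members, 63 were matched to a RefSeq start. A run of at least 8 consecutive pyrimidines reaching within 20 bases of the start was present on the gene's strand in 30 of the 63 (47.6%), against 20.8% of 27025 genes searched in the same way. On the opposite strand it was present in 7.94% of the members and 22.8% of all genes. Among the 7 shown members with separated groups, Rpl15, Rpl22l1, Rpl27a and Rpl7a had such a run and Rps2, Rpl12 and Rpl7l1 did not. The run was also present in Rps9 and Rps27. The search did not require a C at the start, so neither a match nor its absence decides whether an mRNA is a TOP mRNA. A match describes these letters only.

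Each library held 7767070 to 8625140 scaled reads, which are read counts rescaled by the authors with a size factor for each library, and 16778 to 17621 genes above 0. Of the genes that the donor marrow lacked, Nos2 was lower with NOS-null marrow, at 29.5 ± 14.7 against 98.6 ± 13.1 scaled reads (SD, n = 4). Its log2 change was -1.84, adjusted p = 0.0221 in the limma test used throughout. Nos1 was at 0 in 7 of the 8 libraries. Nos3, which the recipients' own endothelium keeps, did not pass (log2 change 0.07, adjusted p = 0.701). The 12 lung-defining genes, among them the surfactant genes Sftpc and Sftpb and the endothelial genes Pecam1 and Cdh5, were all present, and 0 of 12 passed the limma test (0 at an unadjusted p under 0.05). In whole lung, fewer cells of a type and less RNA per cell cannot be told apart. The labels number the libraries within a group and name no litter, day or batch, so p-values measure only the spread between these samples, which may be technical in part.

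Ribosomal protein genes were among the most highly expressed genes of these lungs. Compared per transcript length, 39 of the 84 ranked among the first 100 genes by mean FPKM (fragments scaled to transcript length and library size) and 65 among the first 200. The highest was Rplp1, a protein of the flexible stalk that recruits the translation factors, at 2281 ± 111 FPKM with NOS-null and 2498 ± 297 with WT marrow (SD, n = 4). Next came Rpl41, the smallest ribosomal protein (mean 2034 FPKM), the X-linked Rpl10, which is needed for the last step of large subunit maturation (1682), Rps12 (1553) and Rpl39, which lines the tunnel through which the new chain leaves (1433). In all, 74 of the 81 members that passed the filter on low values, 10 or more scaled reads in 4 or more libraries, had a mean between 115 and 2390 FPKM. The other 7, Rps27, Rpl7l1, Rpl34, Rpl30, Rps4y2, Rps15a and Rpl26, lay at 7.52 to 65.5 FPKM. Rps15a was low on this scale only and not in scaled reads.

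Together the members made up 3.53, 3.48, 3.30 and 3.31% of all scaled reads in NOS-null replicates 1 to 4, and 4.14, 3.62, 3.68 and 3.51% in WT replicates 1 to 4. WT replicate 1 stood above all others, and the groups overlapped only in that NOS-null replicate 1 lay above WT replicate 4. The mean share was 3.40 ± 0.119% with NOS-null and 3.74 ± 0.275% with WT marrow (SD, n = 4). On the FPKM scale, where long and short mRNAs count alike, the share was 9.38 ± 0.417% against 10.2 ± 0.562%.

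The same pattern was present gene by gene. For each tested member the log2 of its scaled reads (plus 1) was set against its own mean over the 8 libraries, and the mean of the 81 deviations was 0.05, -0.002, -0.12 and -0.16 in NOS-null replicates 1 to 4 and 0.25, -0.02, 0.02 and -0.02 in WT replicates 1 to 4. WT replicate 1 was high, NOS-null replicates 3 and 4 were low, and NOS-null replicate 1 lay above WT replicates 2, 3 and 4, so the groups overlapped. WT replicate 1 held the highest value of 70 of the 81 genes, and NOS-null replicate 4 the lowest value of 56. This shift, common to the members of a library, held 51.6% of their summed squared deviations. Both subunits showed it, with a mean deviation in WT replicate 1 of 0.26 for the large and 0.24 for the small subunit and in NOS-null replicate 4 of -0.16 and -0.15.

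**Figure D1:**
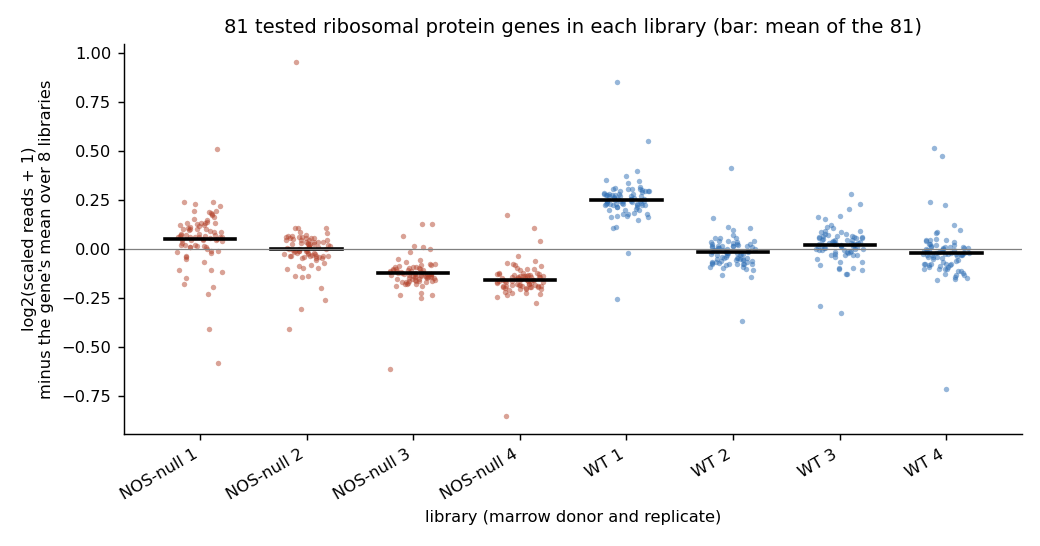
Deviation of each of the 81 tested members (points) from its own mean over 8 libraries, on the log2(scaled reads + 1) scale, by library; black bars are the mean of the 81 genes. The points of WT 1 lie around 0.25, those of NOS-null 3 and 4 around -0.12 and -0.16, and the other 5 libraries near 0.

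Between the marrow groups, 2 of 81 tested members were called changed (2.47%), against 4.05% of all 14008 tested genes, 2.18% lower and 1.87% higher. Both, Rpl30 and Rps2, were lower with NOS-null marrow, and 0 members were called higher in the limma test (0 higher also at an unadjusted p under 0.05). At an unadjusted p under 0.05 the count was 9 members, all with negative log2 changes (11.1%, against 26.6% of all genes). Log2 changes are NOS-null minus WT marrow. The values of the groups did not overlap in 9 members, all lower with NOS-null marrow (11.1%, against 17.1% of all genes in either direction, 9.29% lower and 7.82% higher). The share of members called was below that of all genes for either direction and close to it for lower values (2.47% against 2.18%). The share with separated groups stood likewise.

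The direction was nearly uniform and the size small. Of the 81, 76 had a negative log2 change (93.8%, against 49.9% of all genes), with a median of -0.11, or 0.927-fold, against 0.00 for all genes. The large subunit had 47 of 48 negative, with a median of -0.12, and the small subunit 29 of 33, with a median of -0.10. The members move together within a library, as above, so these counts are not 81 separate observations. Without WT replicate 1 the median was -0.04, 58 of 81 were negative and 0 members were called (limma). That fit called 71 of all tested genes, against 567 with all libraries.

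**Figure D2:**
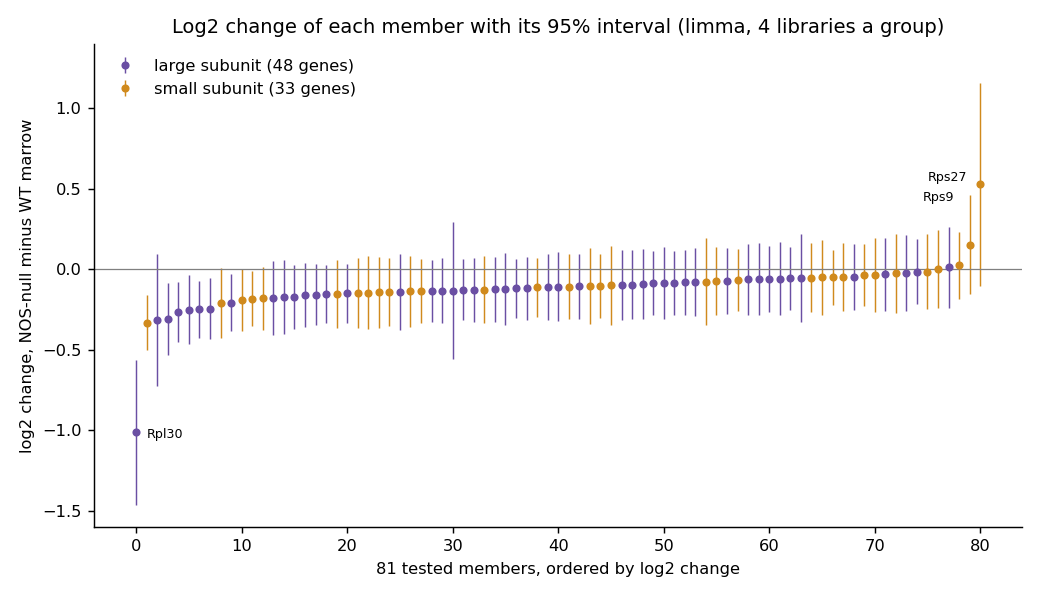
Log2 change, NOS-null minus WT marrow, of the 81 tested members in increasing order, with 95% intervals from the limma fit (n = 4 libraries a group) and colour by subunit. Most points lie between -0.2 and 0, the intervals of 72 include 0, and Rpl30 at -1.01 and Rps27 at 0.53 lie at the ends.

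The fit was precise enough to bound most members. The median standard error of a member's log2 change was 0.09, and for 78 of the 81 the 95% interval excluded a change of 1.5-fold in either direction. The 10 members with a log2 change under -0.2 were Rpl30, Rps2, Rpl26, Rpl22l1, Rpl7l1, Rpl38, Rpl15, Rpl12, Rpsa and Rpl7a, 8 of them from the large subunit. Another 35 lay between -0.2 and -0.1 and 31 between -0.1 and 0. The 5 above 0 included Rps3a, Rps14, Rps9 and Rps27.

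In the large subunit, Rpl30, which sits near the interface of the subunits, had the lowest log2 change. Its values were 49.96, 76.5, 48.8 and 41.2 scaled reads in NOS-null replicates 1 to 4 and 137, 101, 91.8 and 105 in WT replicates 1 to 4. Every library with NOS-null marrow lay below every library with WT marrow. The log2 change was -1.01 ± 0.20 (SE), adjusted p = 0.0303. It passed in none of the fits that left out a WT library (highest adjusted p = 0.114 over all settings tried). The level was far below that of most members, at 28.1 FPKM. Of the 75-base windows of its mRNA (the length of the reads), 65.1% also occur in transcripts of other genes, 12 in number. The gene lies at chr15:34440505-34443640 (mm10, minus strand), holds 1 snoRNA gene and overlaps D730044K07Rik on the other strand, so its value is uncertain.

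Rpl15, which is placed early in large subunit assembly, had 2782, 3026, 2877 and 2857 scaled reads with NOS-null and 3907, 3275, 3345 and 3232 with WT marrow. The groups did not overlap, and WT replicate 1 stood high. The log2 change was -0.25 ± 0.08 (SE), which did not pass (adjusted p = 0.0883). Rpl12, at the base of the stalk, likewise had separated groups, 2840 to 3242 against 3341 to 4118 scaled reads. Its log2 change was -0.24, adjusted p = 0.109. Rpl7a, with 4124 to 4701 against 4729 to 5601 scaled reads, and Rpl27a, with 3385 to 3764 against 3787 to 4622, were separated by narrow margins and did not pass (adjusted p = 0.139 and 0.257). Rpl12, Rpl7a and Rpl27a were chosen for mention after their values were seen.

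Rpl38, known for its part in the translation of Hox mRNAs in the embryo, had 1196 to 1429 scaled reads with NOS-null and 1401 to 1809 with WT marrow, which overlapped slightly (log2 change -0.25, adjusted p = 0.138). The stalk proteins Rplp0, Rplp1 and Rplp2 had log2 changes from -0.13 to -0.06, and none passed. Rpl5 and Rpl11, which reach the ribosome in a complex with its smallest RNA and can bind Mdm2 when ribosome assembly stalls, had log2 changes of -0.11 and -0.09. The most abundant large subunit genes also differed little: Rpl10 had a log2 change of -0.11, Rpl41 of -0.17 and Rpl39 of -0.18, with adjusted p from 0.244 to 0.477.

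In the small subunit, Rps2 was called lower. Rps2 lines the channel through which the mRNA enters. Its values were 5536, 5566, 5515 and 5265 scaled reads in NOS-null replicates 1 to 4 and 7657, 6569, 6873 and 6516 in WT replicates 1 to 4. The libraries with NOS-null marrow lay close together, and all were below all of those with WT marrow. The log2 change was -0.33 ± 0.08 (SE), adjusted p = 0.0433, or 0.794-fold. It passed in none of the 8 fits that left out 1 library, and on the FPKM scale its adjusted p was 0.0508. The gene lies at chr17:24718116-24721929 (mm10, plus strand), and 66.7% of its mRNA's windows also occur in transcripts of 50 other genes. The opposite-strand genes Snhg9 and Snora78 within it held 0 to 3.97 scaled reads.

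Rps2 shares the entry channel with Rps3 and Rps9, and the 3 had different values. Rps3 had a log2 change of -0.13 (adjusted p = 0.397). Rps9 had 6275, 4556, 4149 and 3939 scaled reads with NOS-null and 4764, 3990, 4039 and 3976 with WT marrow. NOS-null replicate 1 stood far above the rest, WT replicate 1 came next, and the other 6 lay between 3939 and 4556, so the groups overlapped. Its log2 change was 0.15 (adjusted p = 0.498), and -0.05 without NOS-null replicates 1 and 2.

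Rpsa, also known as the laminin receptor, had 6925 to 8157 against 7430 to 9743, which overlapped, and did not pass (adjusted p = 0.208). Rps6 had 5548 to 6920 against 6014 to 7649 scaled reads (log2 change -0.15, adjusted p = 0.370). Rps14, whose loss in human bone marrow causes a form of anaemia, had a log2 change of 0.02, Rps3a of 0.004 and the X-linked Rps4x of -0.01.

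Some ribosomal protein genes are known for inherited anaemia when 1 copy is lost, the Diamond-Blackfan type. Of 8 such genes (Rps19, Rps24, Rpl35a, Rpl5, Rpl11, Rps7, Rps26 and Rps10), 0 passed the limma test, and the log2 changes ran from -0.14 (Rps7) to -0.05 (Rps19). This group was drawn up after the values were seen. In the same libraries 6 of 9 tested erythroid markers rose (66.7%, against 1.87% of all genes). Among them was Alas2, the first enzyme of haem synthesis in red cells (log2 change 1.41, adjusted p = 0.000975). Alas2, Hbb-b2 and Spna1 passed in all 8 fits that left out 1 library, Hbb-b1 in 4 and Slc4a1 in 2.

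**Figure D3:**
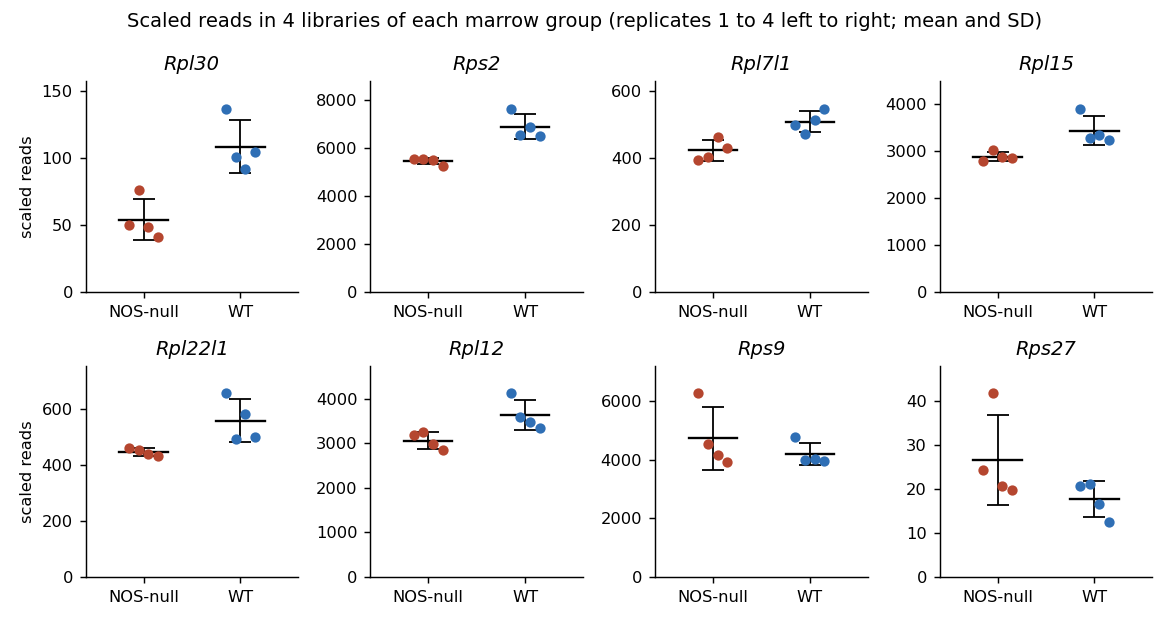
Scaled reads of 8 members in each library (points, replicates 1 to 4 from left to right) with the mean and SD of 4 libraries. In Rpl30, Rps2, Rpl7l1, Rpl15, Rpl22l1 and Rpl12 the groups do not overlap, and in Rps9 and Rps27 they do, with NOS-null 1 and NOS-null 2 highest.

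Mammals carry paralogs of a few ribosomal proteins, and these varied in level. Rpl22l1, which can take the place of Rpl22 in the ribosome, had 461, 451, 438 and 433 scaled reads with NOS-null and 655, 492, 581 and 498 with WT marrow. Its groups did not overlap, and WT replicates 1 and 3 stood high. The log2 change was -0.31 ± 0.10 (SE), which did not pass (adjusted p = 0.0923). Rpl22 itself had a log2 change of -0.15 (adjusted p = 0.261), with overlapping groups. Per length Rpl22l1 was the more abundant, at a mean of 222 FPKM against 115 FPKM for Rpl22.

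Rpl7l1, a relative of Rpl7 that acts in assembly, had 394, 403, 463 and 431 scaled reads with NOS-null and 499, 471, 514 and 547 with WT marrow. The groups were separated, and here WT replicate 1 did not stand out. The log2 change was -0.27 (adjusted p = 0.0882), against -0.10 for Rpl7, at a mean of 23.1 FPKM against 1082 FPKM for Rpl7. Only 3.87% of its windows occur elsewhere. Rps27l, a p53-responsive relative of Rps27, had 526 to 714 scaled reads with WT marrow and 531 to 604 with NOS-null marrow, a log2 change of -0.05 (adjusted p = 0.787).

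The muscle paralog Rpl3l and the testis paralogs Rpl10l and Rpl39l did not pass the filter, and Rpl3 itself had a log2 change of -0.16 (adjusted p = 0.271). Rpl3l held 0 to 6.15 scaled reads, Rpl39l 0 to 3.08 and Rpl10l 0 to 1.09, where 3 reads correspond to 2.81 to 3.26. No difference was detectable at this depth. Rps4y2, now called Rps4l and annotated as a transcribed pseudogene on chromosome 6, had 208 to 281 scaled reads and a log2 change of -0.10 (adjusted p = 0.587).

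Rps27, Rpl34 and Rpl26 had low values beside those of most members. Rps27 held 24.2, 41.8, 20.8 and 19.8 scaled reads with NOS-null and 20.7, 21.1, 16.6 and 12.4 with WT marrow. NOS-null replicate 2 was highest and the groups overlapped, and the log2 change of 0.53, the highest of the members, did not pass (adjusted p = 0.257). At 7.52 FPKM it was the lowest tested member, and 67.3% of its windows occur in other genes. Rpl34 held 62.2 to 114 scaled reads, while the pseudogene entry Rpl34-ps1 in the same table held 1843 to 2696, and 30.5% of its windows are shared. Rpl26 held 135 to 258 scaled reads and shares 45.9%, with a log2 change of -0.31 (adjusted p = 0.296). Rps15a, at 64.3 FPKM, had 2250 to 2740 scaled reads with NOS-null and 2514 to 3199 with WT marrow, with overlapping groups (log2 change -0.15, adjusted p = 0.346). Its scaled reads were not low beside those of other members. Rps13, with a mean of 2379 scaled reads with NOS-null marrow, had a mean of 777 FPKM.

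Over all members the share of such windows varied widely. In 39 of the 84 members more than 50% of the windows occur in other genes, the called Rps2 and Rpl30 among them. Reads of such genes can be moved between copies, so their values, high or low, are uncertain. The median log2 change was -0.11 in the 12 tested members with up to 10% shared windows, -0.11 in the 30 with 10 to 50% and -0.11 in the 39 above that. Many ribosomal protein genes carry snoRNAs, guides for the modification of ribosomal RNA, in their introns. The 30 tested members with an annotated snoRNA gene inside had a median of -0.11, and the 51 without had a median of -0.11. Groups were separated, all lower with NOS-null marrow, in 6 of the 30 and 3 of the 51, against 9.29% of all genes. The difference between these 2 counts was not tested, and the members move together within a library.

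**Figure D4:**
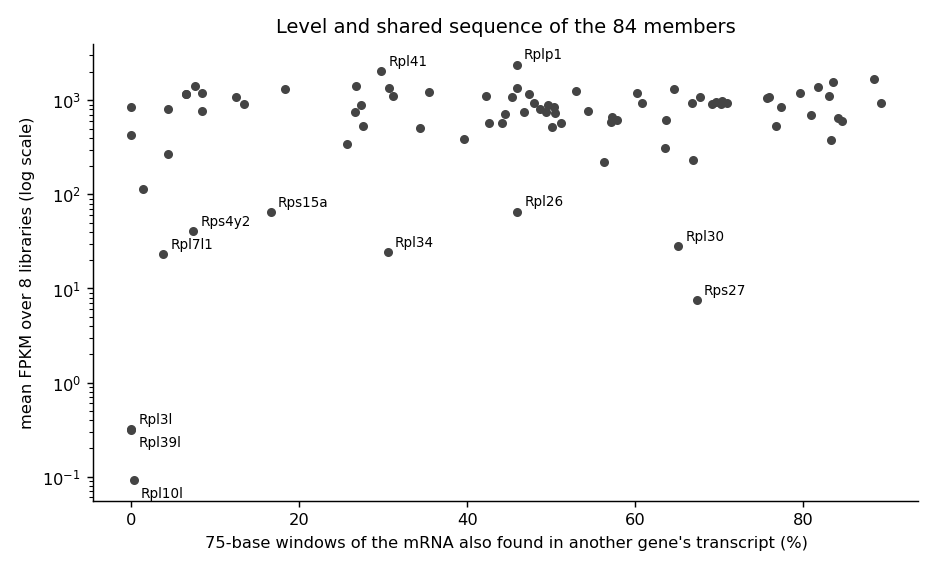
Mean FPKM over 8 libraries (log axis) of the 84 members against the percent of 75-base windows of the mRNA that also occur in a transcript of another gene (median over the gene's transcripts). Most members lie between 115 and 2390 FPKM at any share, and the named genes with low values include Rps27 and Rpl30 above 60% and the paralogs Rpl3l, Rpl39l and Rpl10l near 0%.

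Genes of the same pathway were read from lists. Of 24 TOP mRNAs outside the ribosome, such as those of the elongation factors Eef1a1 and Eef2 and of Npm1, which the list of biogenesis genes below also holds, 0 were called in the limma test (5 at an unadjusted p under 0.05), and their median log2 change was 0.01. Their mean deviation was 0.05, 0.02, -0.06 and -0.10 in NOS-null replicates 1 to 4 and 0.16, -0.02, 0.02 and -0.07 in WT replicates 1 to 4. As for the ribosomal proteins, WT replicate 1 was high, NOS-null replicate 4 low and the groups overlapped. The 2 of smallest p were Gas5, a snoRNA host, at 192 to 274 against 302 to 354 scaled reads (adjusted p = 0.0724), and Eef1d at 723 to 800.5 against 878 to 952 (adjusted p = 0.0768). The 4 ribosomal protein genes that the symbol rule leaves out (such as Rpl36al and Gnb2l1) had a median of -0.06, and 0 were called in the limma test (1 at an unadjusted p under 0.05).

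The factors that build ribosomes differed between the groups by more than the ribosomal proteins did in median. Of 37 ribosome biogenesis genes 4 fell and 0 rose (10.8%, against 4.05% of all genes), 34 of 37 had negative log2 changes and the median was -0.29. Their mean deviation was -0.14, -0.20, -0.10 and -0.04 in NOS-null replicates 1 to 4 and 0.18, 0.09, 0.13 and 0.09 in WT replicates 1 to 4, so that here the groups did not overlap and NOS-null replicate 1 was low. Dkc1, the pseudouridine synthase of ribosomal RNA, had 246, 190, 273 and 244 scaled reads against 396, 373, 351 and 381 (log2 change -0.67, adjusted p = 0.0191). Tsr1, which matures the small subunit, had a log2 change of -0.59 (adjusted p = 0.0248), the nucleolar helicase Ddx21 of -0.32 (adjusted p = 0.0363) and Nop58, a core protein of snoRNA particles, of -0.58 (adjusted p = 0.0405). Dkc1 passed in 5 of the 8 fits that left out 1 library, Tsr1 in 4, Nop58 in 2 and Ddx21 in 1. With single libraries left out the count ranged from 0 to 7, and it was 0 without WT replicate 1, 2 or 3. Those fits called 71, 81 and 87 of all tested genes, against 567 with all libraries. The count of 7 came without NOS-null replicate 4, where 798 of all tested genes were called. The difference between this list and the ribosomal proteins was not tested.

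Of 13 genes of RNA polymerase I and its factors, which make the ribosomal RNA, 0 were called in the limma test (1 at an unadjusted p under 0.05), with a median of -0.09. Of 24 translation initiation factors 3 fell and 0 rose (12.5%, against 4.05% of all genes), with a median of -0.15. Eif4e, which binds the mRNA cap, had 639, 589, 689 and 716 scaled reads against 930, 844, 916 and 787 (log2 change -0.40, adjusted p = 0.0372). Every library with NOS-null marrow lay below those with WT marrow. The helicase Eif4a1 (log2 change -0.34, adjusted p = 0.0319) and Eif2s1, the subunit that stress kinases phosphorylate (-0.39, adjusted p = 0.0364), were the others that fell. Each of the 3 passed in 2 or 3 of the 8 fits that left out 1 library.

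Ribosomal proteins of the mitochondria are encoded by a separate set of nuclear genes. Of 76 tested, 68 had negative log2 changes and the median was -0.19. In the limma test 2 fell and 0 rose (2.63%, against 4.05% of all genes, 2.18% lower). They were Mrps18b (log2 change -0.44, adjusted p = 0.0458) and Mrpl42 (-0.40, adjusted p = 0.0488). The count ranged from 0 to 4 with single libraries left out, and was 0 without NOS-null replicate 2 or any WT library. The fits with a count of 0 called 71 to 233 of all tested genes, against 567 with all libraries. Of 75 nuclear respiratory chain and ATP synthase subunits 2 fell (Ndufa12 and Cox7b), 0 rose and the median was -0.13. The share called was 2.67%, also below that of all genes. Ndufa12 passed in 2 and Cox7b in 0 of the 8 fits. WT replicate 1 held the highest mean deviation in both lists, 0.20 in each.

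**Figure D5:**
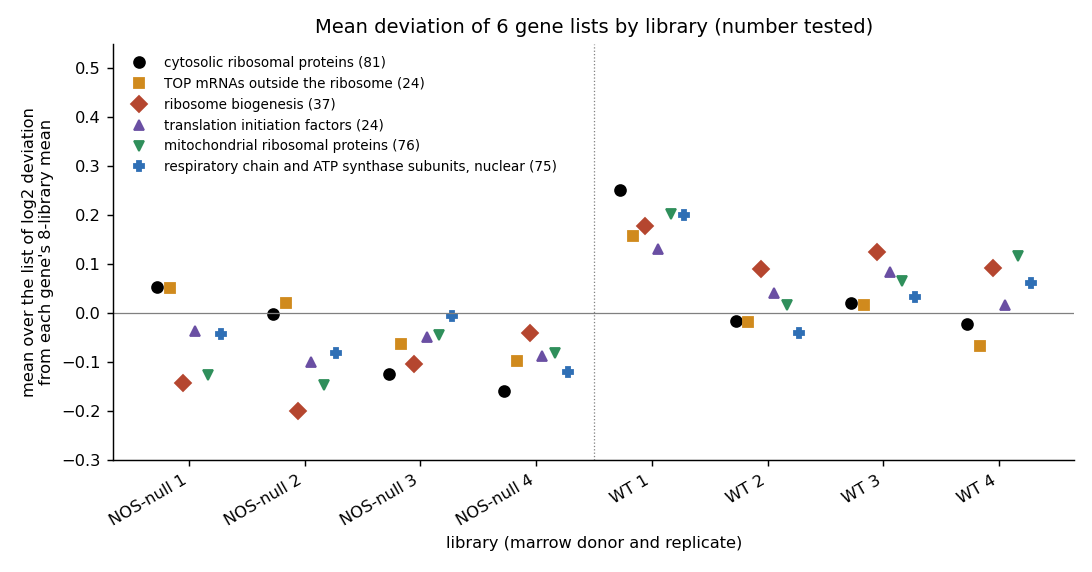
Mean over each list of the log2 deviation of its tested genes from their 8-library means, by library, for the ribosomal proteins (black circles) and 5 other lists, with the number of genes tested in brackets. All 6 lists are highest in WT 1, and in NOS-null 1 the ribosomal proteins and TOP mRNAs lie near 0.05 while the other 4 lists lie below 0.

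The regulators had a median above 0. Of 23 genes of mTORC1, the S6 kinases and the TOP regulators, 1 rose and 0 fell, with a median of 0.15. The share called was 4.35%, against 4.05% of all genes. The one that rose was Sesn2, a stress-induced inhibitor of mTORC1, at 137, 128, 113 and 120 scaled reads with NOS-null and 53.7, 37.5, 57.2 and 71.8 with WT marrow (log2 change 1.20, adjusted p = 0.0133). Its groups were well apart, and it passed in 7 of the 8 fits that left out 1 library. Sesn2 is also a p53 target, and of 18 genes of p53 and its targets 7 rose and 0 fell (38.9%), with a median of 0.43. Cdkn1a, the p53-induced inhibitor of the cell cycle, had 5222, 5917, 4130 and 3068 scaled reads against 1401, 1268, 1684 and 1354 (log2 change 1.65, adjusted p = 0.00253) and passed in all 8. So did Ccng1 and Eda2r, whereas Zmat3 passed in 4 (adjusted p up to 0.0731) and Trp53inp1 in 3 (up to 0.104). Any relation of these genes to the ribosomal proteins was not tested.

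Blood cell markers moved with the libraries as well. Of 8 tested neutrophil markers 0 were called in the limma test (7 at an unadjusted p under 0.05), and the 9 markers in the table, Camp included, summed to 94825 scaled reads in NOS-null replicate 1, 4202 to 9911 in the other NOS-null libraries and 1681 to 4005 with WT marrow. Of 7 tested B cell markers 0 were called (6 at an unadjusted p under 0.05), with a sum over the 8 in the table of 135 to 1041 against 1339 to 2754, lowest in NOS-null replicate 1. Of 10 T cell markers 0 were called (4 at an unadjusted p under 0.05), and the sum was highest in NOS-null replicate 2, at 2089, against 503 to 792 in the others. Of 6 tested NK cell markers 2 fell, Gzma and Klrb1c (33.3%, against 2.18% of all genes). They passed in 3 and 2 of the 8 fits. The sum over the 8 NK cell markers in the table was 172 to 320 against 335 to 521.

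Of 10 monocyte and macrophage markers 1 fell in the limma test, Siglec5 (10%, against 2.18% of all genes), and 0 rose. At an unadjusted p under 0.05 the count was 8. Only 2 of the 10 had negative log2 changes, and the median was 0.41. Marco was also lower, at 0 to 15.2 against 43.5 to 49.6 scaled reads, and was not called. The sum over the 10 was 11309 to 29318 scaled reads with NOS-null and 8945 to 11163 with WT marrow. Chi3l3 alone held 22258 of the 29318 in NOS-null replicate 1. The sum over the 11 erythroid markers in the table was 22928 to 30474 against 11374 to 13897. Of 9 tested, 6 were called higher (66.7%, against 1.87% of all genes) and 0 lower. Of 12 proliferation genes 4 fell (33.3%, against 2.18% of all genes). Among them were the replication genes Mcm2 and Pcna, which passed in 4 and 2 of the 8 fits. The sum over the 12 was 1810 to 2804 against 2683 to 3986, lowest in NOS-null replicate 1 and highest in WT replicate 1. The lung-defining sum was also highest in WT replicate 1, at 430990, against 347063 to 409682 in the other WT libraries and 349453 to 376032 with NOS-null marrow. Defining markers at 0 in a single library each were Pax5 in NOS-null replicate 1, Camp in WT replicate 3, Marco in NOS-null replicate 3 and Klf1 in WT replicate 4. The part of these cell types and of these libraries in the ribosomal protein values was not tested.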

How the data were processed

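RNA from whole lung was sequenced as 75-base single reads from oligo(dT)-selected mRNA (RNA integrity 7.8 to 8.2), per the labels' protocols, which do not state strand. Per the submitters' processing notes, CASAVA 1.8.2, TopHat2 2.0.13, Bowtie2 2.2.3, SAMtools 0.1.19 and Cufflinks 2.2.1 were used with mm10. The annotation and settings are not given in any source used here. The authors deposited a gene table of signal values on the read count scale, divided by 1 size factor per library, and an FPKM table, both with 1 column per library. Groups were read from the titles, because the design text of the series gives both groups the NOS-null donors.

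From the deposited signal values (scaled reads), log2(value + 1) was computed for the 14008 genes with at least 10 in at least 4 libraries and tested with limma (3.58.1, trend, R 4.3.3), NOS-null minus WT marrow, with no other term. Genes with a p under 0.05 after Benjamini-Hochberg adjustment across the tested genes were called. Few values lay below the step of 1 read (0.937 to 1.088), so whole reads were not recovered and no count model was used. The 3-read floor covers counting error only. The procedure was tested on simulated data. FPKM from the authors served for levels and as an alternative.

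The members and lists were chosen with earlier results of these data known. Named members were those called, the 6 of largest and 6 of smallest log2 change, the 5 of smallest p, the 6 highest and 6 lowest by mean FPKM, paralogs with the member they are named after, and those not tested, 27 in all. Some items that this rule or the lists cover are not reported here. From each list they were the called genes, up to 6 by p, or the 2 of smallest p. Other members are given with their groups or where stated. Genes were matched to GENCODE M21 (GRCm38, the assembly of mm10), and start sites came from RefSeq GRCm38.p6. Alternatives were pseudocounts of 0.5 and 10, no filter, a mean of at least 50, TMM rescaling, equal totals without the members, quantile normalization, FPKM plus 0.1, a replicate block, robust variance and libraries left out, and, chosen after seeing the data, values relative to the member mean and leaving out replicate 1 of both groups.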

Additional observations from a re-analysis of the deposited data

Results flagged for a closer look

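In each group of 4 libraries, the gap between the highest or lowest library and its nearest neighbour was divided by the group's range and set against Dixon's 95% critical value, which chance exceeds in about 1 in 20 groups. With WT marrow, replicate 1 was set apart as the highest library in Rps12 (0.961), Rpl41 (0.942), Rps9 (0.913), Rpl39 (0.883) and the mean deviation of the 81 members (0.845). Over all 81 tested members 9 were set apart in the WT group, all of them high in replicate 1. With NOS-null marrow, replicate 1 was set apart as the highest library in Rps3a (0.856), at 8605 scaled reads against 6789 to 7024. In Rps2 replicate 4 was set apart as the lowest of the NOS-null libraries (0.835), at 5265 scaled reads against 5515 to 5566. Over all 81 members 1 was set apart as high and 1 as low in the NOS-null group. The cause of these gaps was not tested.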

How the results depend on the processing

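Over 20 to 21 other settings, the 24 named tested members gave 503 values, of which 457 kept direction and side of the threshold. The 20 that no longer passed were all of Rpl30 or Rps2, with 21 settings each. Only these 2 members had passed in the main fit, so no other member could stop passing. The 457 therefore say little about how firm the 2 calls are. The median log2 change of the members, -0.11, was -0.15 to -0.04 with single libraries left out and -0.20 without NOS-null replicates 1 and 2. Relative to the member mean it was 0.01, where the median of all genes moved to 0.12 and 38 of 81 members were negative. This setting takes the members' own mean out of each library, so it cannot show a change that they share.

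The count of 2 called members became 1 with no filter, with FPKM, without NOS-null replicates 1 and 2 and relative to the member mean (Rpl30 in each), 0 without replicate 1 of both groups, and 0 to 1 with single libraries left out. The corresponding count was 0 to 7 for ribosome biogenesis (4 with all libraries), 0 to 4 for mitochondrial ribosomal proteins (2 with all libraries) and 0 throughout for TOP mRNAs outside the ribosome. Over all tested genes it was 71 to 798 (567 with all libraries), so these list counts changed along with the number of calls over all genes. With the replicate number as a block the count of called members was 0, and 135 genes of 14008 were called against 567 without the block. Same-numbered libraries deviated together with correlations of 0.04, 0.17, 0.00 and 0.15, against -0.18 to 0.11 for differently numbered ones. The values for replicates 2 and 4 were thus the highest. The labels name no pairing and the main fit used none, but whether the numbers pair the samples was not settled.

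Log2 changes that turned sign were all small. With equal totals without the members they were -0.00783 for Rps14 and -0.0287 for Rps3a. Without NOS-null replicates 1 and 2 they were -0.0482 for Rps9, -0.0911 for Rps14, -0.0666 for Rps3a, 0.0520 for Rpl34 and 0.0346 for Rps4y2. Without replicate 1 of both groups they were -0.00169 for Rps3a, 0.00724 for Rps4x, 0.0731 for Rpl34 and 0.0760 for Rps27l. Relative to the member mean they were 0.102 for Rps4x, 0.0108 for Rpl10, 0.0166 for Rps4y2, 0.0664 for Rps27l and 0.0189 for Rpl7. With single libraries left out the changes ranged from -0.0347 to 0.0845 for Rps14, -0.0768 to 0.0787 for Rps3a, -0.0704 to 0.0635 for Rps4x, -0.251 to 0.0304 for Rpl34 and -0.102 to 0.0448 for Rps27l. The cause of these shifts was not tested. For Rpl10l, Rpl39l and Rpl3l, at 0 to 6.15 scaled reads, no difference could be read at this depth.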

Other observations

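Of 6 ribosomal protein pseudogene entries 3 were tested, 0 were called in the limma test (0 at an unadjusted p under 0.05) and their median log2 change was -0.17. Their mean deviation was highest in WT replicate 1 (0.32) and lowest in NOS-null replicates 3 and 4 (-0.33 and -0.30), the libraries in which the ribosomal protein genes stood high and low.

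Rps9 was highest in NOS-null replicate 1. Tsen34, which precedes Rps9 on chromosome 7, held 421 scaled reads in that library and 376 to 612 in the others. The receptor gene Pira2 lies further along, at chr7:3836812-3845051, and is not directly next to Rps9. It held 108 scaled reads in that library and 117, 11.9 and 39.3 in NOS-null replicates 2, 3 and 4. With WT marrow Pira2 held 57.5 to 91.2. Pira1 and Lilrb3, for which no position was matched, were highest in NOS-null replicate 1. Pira1 held 1115 scaled reads there and 25.2 to 128 in the others, and Lilrb3 919 and 152 to 320. Any relation of these genes to the Rps9 value was not tested.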
